A study of Rattus norvegicus with 28 samples.

Results

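The genes described here are those of the cAMP machinery: the adenylyl cyclases that make cAMP, the phosphodiesterases (PDEs) that break it down, the subunits of protein kinase A (PKA), the A-kinase anchoring proteins (AKAPs) and the Rapgef exchange factors, which include the EPAC proteins. Members were chosen by gene symbol alone, as every symbol on the array beginning with Adcy, Pde, Prkac, Prkar, Akap or Rapgef and followed by a number or subunit letter, with Rapgef4 added through its probe description. This gave 61 genes of the 35469 features measured, namely 10 adenylyl cyclases, 7 cAMP-specific PDEs, 8 dual-specificity PDEs, 9 cGMP-specific PDEs and other genes named Pde, 6 PKA subunits, 15 AKAPs and 6 Rapgefs. They were represented by 84 probes. Of the 61 genes, 51 were well above background on all 28 arrays, 6 on some arrays (Adcy1, Pde7b, Pde8b, Pde11a, Pde6b and Pde6h) and 4 on none (Pde3a, Pde6a, Pde6c and Akap4). Pde4c was not among the symbols.

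The study followed spinal cord injury (SCI) in adult female Sprague Dawley rats with single-colour microarrays, 4 arrays in each of 7 groups. T0 was spinal cord without injury (sham in the labels, uninjured in the study's text), and T1, T2, T4 and T8 were cords taken 1, 2, 4 and 8 weeks after a severe contusion at thoracic vertebra 8. In T1_NPC and T2_NPC, injured rats also received neural progenitor cells (NPCs), grown as neurospheres from the injured cord of adult rats, either right after injury (T1_NPC) or 1 week later (T2_NPC), and cord was taken 1 week after transplantation. The care given to all operated rats comprised the antibiotic Enrofloxacin, the opioid Buprenorphine and the immunosuppressant FK-506 (tacrolimus). FK-506 is dated from the day before transplantation, and its start in rats without a transplant is not given in the sources used here. According to the study's methods, injured control rats received an equal volume of medium without cells. T1_NPC was compared with T1 and T2_NPC with T2. Each sample was a length of cord that included the injury epicentre, without dura, so every value is an average over all cells of that tissue. The study calls the arrays biological replicates, and p-values here measure only the spread between these arrays.

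cAMP is a second messenger made from ATP by adenylyl cyclases under the control of G proteins. It acts through PKA, whose regulatory subunits release the catalytic subunits when cAMP binds, through the EPAC exchange factors, which switch on the small G protein Rap, and through cyclic nucleotide-gated channels. PDEs end the signal, and AKAPs hold PKA together with PDEs and other enzymes at particular sites in the cell, so that cAMP acts locally. In the nervous system, cAMP is known for its part in axon growth, synaptic plasticity and myelination.

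All levels are log2 intensities, quantile normalised by the authors. Differences are log2 differences between group means with the standard error of the limma fit over all 28 arrays, and a gene is said to have risen or fallen where the Benjamini-Hochberg adjusted p over all 35469 features was under 0.05. The share of probes well above background ran from 74.5% to 82.7% over the arrays. The scanner outputs deposited with 16 of the arrays (all 12 arrays of the second scanning session and the 4 of T1_NPC) ranked closest to another array's column of the authors' table rather than to their own, so the authors' table was used for values and the 12 undisputed arrays were used alone as a check. One array, T1_NPC replicate 2, stood apart in its cell type markers (microglial markers 10.96 against 12.04 to 12.26 in the other T1_NPC arrays, fibroblast markers 12.03 against 13.79 to 14.82).

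After injury, the cAMP machinery fell more often than it rose. At 1 week, 10 members rose and 22 fell (52.5% of members, where 44.1% of all features changed). At 2 weeks, 10 rose and 25 fell (57.4% against 40.0%), at 4 weeks 10 rose and 24 fell (55.7% against 38.5%), and at 8 weeks 11 rose and 24 fell (57.4% against 39.7%). Among all features, 19.1%, 17.7%, 17.5% and 18.2% rose at the 4 times and 25.1%, 22.2%, 21.0% and 21.5% fell. The median difference over the members was -0.32, -0.40, -0.23 and -0.28 at 1, 2, 4 and 8 weeks, beside -0.10, -0.05, -0.06 and -0.04 over all features. The arrays of the injured group lay wholly above those of T0 for 10 members at every time, and wholly below for 24, 25, 23 and 23 members (all features: 17.4%, 16.5%, 16.4% and 17.4% wholly above, and 23.6%, 20.5%, 21.1% and 21.3% wholly below). The comparisons with T0 share its 4 arrays and are not independent of each other.

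At all 4 times, 6 members rose (Adcy4, Adcy7, Adcy10, Pde5a, Akap10 and Akap13), and 17 fell (Adcy2, Adcy3, Adcy5, Adcy8, Pde4a, Pde4d, Pde8b, Pde1b, Pde4dip, Prkaca, Prkacb, Prkar1b, Akap3, Akap5, Akap6, Akap11 and Rapgef4). Among all features, 12.3% rose and 15.9% fell at all 4 times. At least 1 change was found for 42 members (55.1% of all features). The 12 undisputed arrays alone leave 1 array in T1 and 1 in T4, so no count over all 4 times is given from them.

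**Figure D1:**
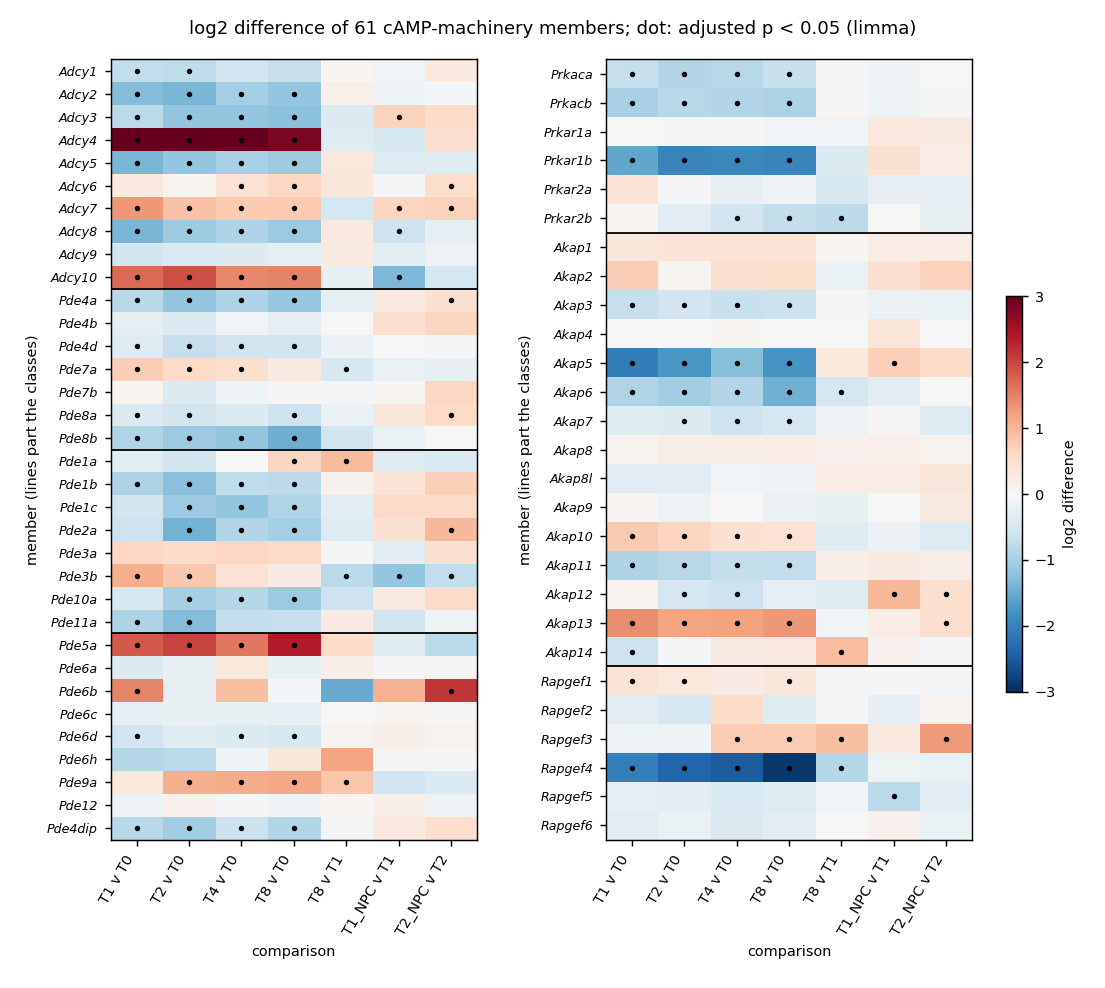
Heat map of the log2 difference (colour, red higher and blue lower, drawn from -3 to 3 so that differences beyond are cut to the end colours) of all 61 members (rows, parted into classes by lines) in 7 comparisons (columns); a dot marks an adjusted p under 0.05 in limma. Adcy4 and Pde5a are the deepest red rows after injury, Rapgef4, Akap5 and Prkar1b the deepest blue, and dots are fewer in the T8 against T1 and transplantation columns.

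The cell makeup of the cord, as read from marker genes, moved over the same times. Of 10 neuronal markers, none rose, and 9, 10, 10 and 9 fell at 1, 2, 4 and 8 weeks, with a mean marker level of 13.16 to 13.57 per array in T0 and 11.35 to 12.22 in T1. All 9 microglial markers rose at 1 and 2 weeks and 8 rose at 4 and 8 weeks (mean level 9.21 to 9.34 in T0 and 11.84 to 12.41 in T1), and all 6 T cell markers rose at 1 week (4.05 to 4.72 and 7.10 to 7.83), of which Cd3e and Cd2 were not well above background in T0. All 5 fibroblast markers rose at 1 week, from 9.02 to 9.74 to 13.88 to 14.86. In whole tissue, fewer cells of a type and less RNA per cell cannot be told apart, and the part of these shifts in the changes described below was not tested.

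The adenylyl cyclases split by isoform. At 1 and 2 weeks 3 of 10 rose and 5 fell, and at 4 and 8 weeks 4 rose and 4 fell. These were 80.0% of the cyclases at each time, where 38.5% to 44.1% of all features changed. Adcy4, an isoform stimulated by G protein beta-gamma subunits, had the largest positive difference of any member at each of the 4 times, at 3.17 ± 0.43 at 1 week and 2.82 ± 0.43 at 8 weeks (adjusted p = 1.9e-06 and 1.07e-05, limma). Its arrays read 6.23, 6.92, 6.42 and 7.50 in T0 and 9.58, 10.25, 9.48 and 10.44 in T1. No injured array of the time course came near the T0 arrays. Adcy10, the soluble cyclase that responds to bicarbonate, rose by 1.93 ± 0.42 at 2 weeks, and Adcy7 rose by 1.30 ± 0.18 at 1 week. Among those that fell at every time were the calcium-stimulated Adcy8 (-1.37 ± 0.18 at 1 week) and the calcium-inhibited Adcy5 (-1.38 ± 0.14 at 1 week). Adcy3, known from olfactory neurons and primary cilia, fell to -1.22 ± 0.20 at 8 weeks, and Adcy2 to -1.38 ± 0.19 at 2 weeks. Adcy6 was the isoform with a late rise, of 0.43 at 4 weeks and 0.63 at 8 weeks, after differences of 0.30 and 0.11 at 1 and 2 weeks that did not pass the test.

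The probes for Adcy7 disagreed in size, and their sequences are given because the gene's value is their average. The last 30 bases of one and the first 30 of the other are shown, and the capitals mark the bases alike (12 of 14) where the end of the first is laid over the start of the second.
Adcy7 probe A_44_P494183, end: atggccctgatgagcaAGCTGGAtGGaATC
Adcy7 probe A_44_P351412, start: AGCTGGAcGGcATCaacaggcactccttca
The probe A_44_P494183 lies at chr19:20053958-20054017 on the minus strand (rn4, per the array annotation), and no position was given there for the other. At 1 week after injury A_44_P494183 rose by 1.98, and A_44_P351412 differed by 0.62 without passing the test.

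Among the cAMP-specific PDEs, losses outnumbered gains. Of 7, 1 rose and 4 fell at 1 and 2 weeks, 1 rose and 3 fell at 4 weeks, and none rose and 4 fell at 8 weeks, with median differences of -0.38, -0.56, -0.40 and -0.55. The calls made up 71.4%, 71.4%, 57.1% and 57.1% of the class (38.5% to 44.1% of all features). The Pde4 enzymes are the cAMP-specific family inhibited by rolipram. Pde4a read 9.07, 9.12, 8.75 and 9.43 in T0 and 7.74, 8.16, 7.87 and 7.88 in T2. Every array of the time course after injury was below every T0 array. Pde4a fell at all 4 times, by 0.84, 1.18, 0.92 and 1.14 (SE 0.15, adjusted p at 2 weeks 7.04e-07, limma), which at 2 weeks was 2.26-fold.

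Pde4d also fell at all 4 times, from -0.38 ± 0.15 at 1 week to -0.68 ± 0.15 at 2 weeks. It was read by 4 probes, and at 1 week 1 of them, A_44_P489826, stood at 0.28 while the others lay between -0.81 and -0.23. Pde4b, the family member known for its part in inflammatory cells, overlapped T0 at every time, with differences of -0.28, -0.41, -0.09 and -0.25 that did not pass the test.

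Pde7a and the Pde8 genes went opposite ways. Pde7a, a cAMP-specific enzyme that rolipram does not inhibit, read 9.11, 9.31, 9.11 and 9.24 in T0 and 9.77, 9.84, 10.04 and 10.06 in T1. The groups were well separated at 1 week and closer later: the difference was 0.74 ± 0.11, 0.57 and 0.47 at 1, 2 and 4 weeks, each passing the test, and 0.26 at 8 weeks, which did not (adjusted p = 0.0737). From 1 to 8 weeks Pde7a fell by 0.48 (adjusted p = 0.00578). Pde8a and Pde8b, enzymes with high affinity for cAMP, were lower after injury. Pde8a fell by 0.44, 0.56 and 0.63 at 1, 2 and 8 weeks and differed by -0.40 at 4 weeks (adjusted p = 0.0696). Pde8b was dim: it was well above background on all 4 arrays of T0 and on 1, 2, 3 and 0 arrays of T1, T2, T4 and T8. Its mean was 4.88 in T0 and 3.41 in T8, and since T8 gives only an approximate bound, it was about 2.33-fold lower or more there (adjusted p = 0.000151, limma).

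The dual-specificity PDEs, which hydrolyse both cAMP and cGMP, had median differences of -0.52, -1.04, -0.74 and -0.73 at 1, 2, 4 and 8 weeks. Of 8, 1 rose and 2 fell at 1 week, 1 rose and 5 fell at 2 weeks, none rose and 4 fell at 4 weeks, and 1 rose and 4 fell at 8 weeks. Pde2a, which cGMP stimulates, read 7.29, 8.25, 7.53 and 8.74 in T0 and 6.43, 6.44, 6.29 and 7.02 in T2. T0 was widely spread, and every T2 array was below it. The difference was -0.63 ± 0.27 at 1 week, short of the threshold (adjusted p = 0.062), and Pde2a fell by 1.41, 0.89 and 1.02 at 2, 4 and 8 weeks (adjusted p = 0.000173, 0.0111 and 0.00375). Pde2a also differed by 0.68 between the scanning sessions of the time course at equal groups. Within the first session its difference at 8 weeks was -0.81 (adjusted p = 0.0756) and within the second -1.23.

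The calcium- and calmodulin-stimulated Pde1 genes did not move together. Pde1b fell at all 4 times, with its lowest value at 2 weeks (-1.25 ± 0.23). Pde1c fell by 1.08, 1.17 and 0.90 at 2, 4 and 8 weeks, after -0.55 at 1 week (adjusted p = 0.0887). Pde1a went the other way late: it read 8.43, 8.02, 7.75 and 7.86 in T1 and 8.92, 9.11, 8.71 and 9.17 in T8, wholly above, and rose by 0.96 ± 0.26 from 1 to 8 weeks (adjusted p = 0.0167). Against T0 it had risen by 0.65 at 8 weeks (adjusted p = 0.0492), although the groups overlapped, and that call was kept in only 9 of 28 fits that each left out 1 array. Pde10a, an enzyme best known from striatal neurons, fell from 2 weeks on (-0.85 at 4 weeks), and Pde11a fell at 1 and 2 weeks (-0.93 and -1.31).

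Pde3b, the cGMP-inhibited enzyme known for relaying insulin signals in fat and liver, was the dual-specificity PDE that rose early. Its arrays read 8.64, 8.49, 8.54 and 8.26 in T0, 9.60, 9.47, 9.53 and 9.64 in T1 and 8.76, 9.02, 8.53 and 8.63 in T8. The T1 arrays were tightly grouped and wholly above T0, and those of T8 overlapped T0. Pde3b rose by 1.08 ± 0.22 at 1 week and 0.82 ± 0.22 at 2 weeks, was at 0.44 and 0.25 at 4 and 8 weeks without passing the test, and fell by 0.82 from 1 to 8 weeks (adjusted p = 0.0166, limma).

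**Figure D2:**
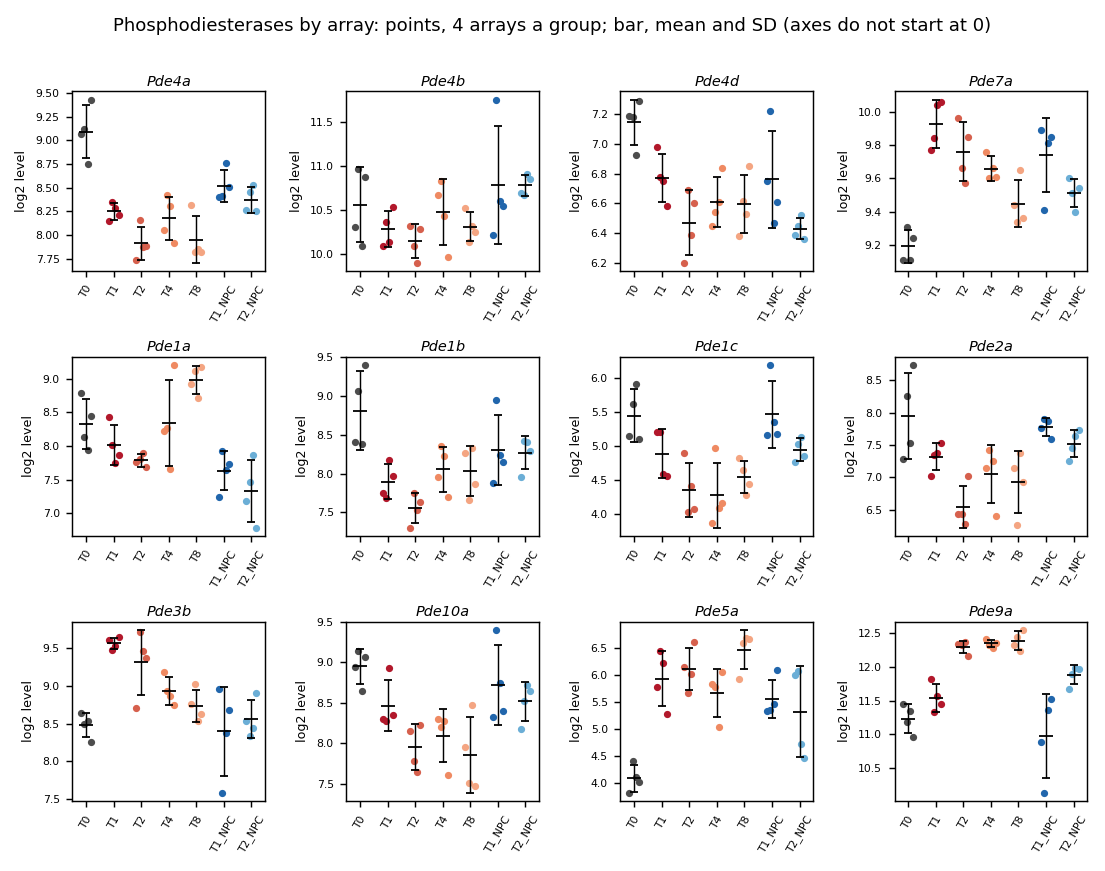
Log2 level of selected phosphodiesterase genes on each array (vertical axes) in the 7 groups, with a bar for each group mean and SD (n = 4). Pde5a is higher in every injured group than in T0, Pde4a is lower in all injured arrays of the time course, Pde9a is raised in T2, T4 and T8, and Pde3b is highest in T1 and lower in both transplanted groups.

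Of the 9 cGMP-specific PDEs and other genes named Pde, 2 rose at each time, and 2, 1, 2 and 2 fell. That was 44.4%, 33.3%, 44.4% and 44.4% of the class, near the 44.1%, 40.0%, 38.5% and 39.7% of all features. Pde5a, the cGMP-specific enzyme that sildenafil inhibits, read 3.81, 4.41, 4.11 and 4.02 in T0, 5.78, 6.46, 6.23 and 5.29 in T1 and 5.93, 6.60, 6.70 and 6.68 in T8. All 16 injured arrays of the time course were above all T0 arrays. Pde5a rose by 1.85, 2.03, 1.59 and 2.39 (SE 0.33), which at 8 weeks was 5.24-fold (adjusted p = 3.47e-06). Both Pde5a probes, from positions far apart in the gene, rose at all 4 times, although the second was well above background on 18 of 28 arrays, and 30 bases of the first are given.
Pde5a probe A_43_P15466, chr2:219515832-219515891: ttgcattgctgattgccgctttaagccatg

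Pde9a, the enzyme with the highest affinity for cGMP, rose later. It read 11.45, 11.18, 11.35 and 10.96 in T0, 11.82, 11.33, 11.57 and 11.45 in T1 and 12.34, 12.32, 12.37 and 12.16 in T2. T1 overlapped T0, and the T2 arrays lay wholly above both. The difference from T0 was 0.31 at 1 week (adjusted p = 0.212) and then 1.06, 1.11 and 1.15 (SE 0.19, adjusted p = 9.37e-05, 6.58e-05 and 3.81e-05). It was the only member to rise from 1 to 2 weeks (0.75 ± 0.19, adjusted p = 0.0495), a call kept in 3 of 28 fits that left out 1 array, and its rise of 0.84 from 1 to 8 weeks had an adjusted p of 0.00515. A stretch of its single probe is given as the sequence behind this value.
Pde9a probe A_44_P1016674, chr20:9901334-9901393: agaaccattttgttcactgatataaaaaca

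Pde6d, which carries prenylated proteins between membranes, fell at 1, 4 and 8 weeks (-0.58, -0.41 and -0.47). Pde4dip, myomegalin, a scaffold at the Golgi and centrosome named for its binding to Pde4d, fell at all 4 times, most at 2 weeks (-1.04 ± 0.21). Pde6b, a photoreceptor enzyme subunit, was dim. It was not well above background on any T0 array and was so on 2 T1 arrays, its means were 2.38 and 3.85, and its change at 1 week (adjusted p = 0.0352) allows no fold.

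None of the 6 PKA subunits rose, and 3, 3, 4 and 4 fell at 1, 2, 4 and 8 weeks. Of all features, 25.1%, 22.2%, 21.0% and 21.5% fell at these times, and 44.1%, 40.0%, 38.5% and 39.7% changed in either direction. With 6 genes in the class, 1 call more or less moves its share widely. The PKA subunits that fell included both catalytic subunits and the regulatory subunit that is mainly neuronal. Prkar1b, that neuronal subunit, read 9.78, 10.83, 10.02 and 11.01 in T0 and 8.90, 7.65, 9.07 and 8.10 in T8. T0 was spread over more than 1 log2 unit and did not overlap any injured group of the time course. Prkar1b fell by 1.56, 1.99, 1.94 and 1.98 (SE 0.37, adjusted p at 8 weeks 0.000109). It differed by 0.56 between scanning sessions, and its difference at 1 week was -1.33 within the first session, which held 1 T1 array, and -1.98 within the second. Prkaca, the catalytic subunit found in most tissues, fell by 0.66 to 0.88, and Prkacb by 0.84 to 0.98 (SE 0.16). Between scanning sessions at equal groups (second minus first), Prkaca and Prkacb differed by -0.56 and -0.33. Prkar2b, the regulatory subunit abundant in brain and fat, fell late: it was at 0.07 and -0.35 at 1 and 2 weeks and fell by 0.57 and 0.71 at 4 and 8 weeks, and by 0.78 from 1 to 8 weeks (adjusted p = 0.00406). The broadly expressed Prkar1a differed from T0 by -0.09 to -0.01, and Prkar2a by -0.22 to 0.39, none passing the test.

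The sequences of a pair of the Prkacb probes are given because a near-identical copy makes this gene's value uncertain. Capitals mark bases shared by both.
Prkacb probe A_44_P118833: AAAGGTTGAGGCTCCaTTCATACCAAAATT
Prkacb probe A_44_P158777: AAAGGTTGAGGCTCCtTTCATACCAAAATT
These stretches share 29 of 30 bases, and the aligned probes 39 of 41 (95.1%), yet the array annotation (rn4) places the first at chr2:244949415-244954750, across a gap longer than the 60-base probe, and the other at chr1:186620283-186620341. The remaining Prkacb probe, A_44_P402956, was -0.60, -0.55, -0.75 and -0.68 at the 4 times.

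The AKAPs contained both risers and fallers. Of 15, 2 rose at each time, and 5, 6, 6 and 5 fell. That was 46.7%, 53.3%, 53.3% and 46.7% of the AKAPs, beside 44.1%, 40.0%, 38.5% and 39.7% of all features. Akap5, which holds PKA, calcineurin and receptors at the postsynaptic membrane of neurons, read 10.92, 11.24, 10.81 and 10.75 in T0 and 8.99, 9.00, 8.34 and 9.06 in T1. The groups lay far apart, and no injured array of the time course reached T0. Akap5 fell by 2.08, 1.74, 1.28 and 1.77 (SE 0.23), which at 1 week was 4.23-fold (adjusted p = 9.03e-08, limma), the largest fall of any AKAP at each time. A stretch of its probe is given for that reason.
Akap5 probe A_44_P238424, chr6:98928387-98928446: tcgtcaagaatgctatcgagttgtctgtag

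Akap6, which anchors PKA at the nuclear envelope of muscle cells and neurons, fell at all times and fell further from 1 to 8 weeks (-0.90 at 1 week, -1.44 at 8 weeks, and -0.53 ± 0.16 between them, adjusted p = 0.0343). Akap11, a large anchoring protein that also binds a glycogen synthase kinase and a phosphatase, read 12.14, 12.09, 11.85 and 12.15 in T0 and 11.10, 10.99, 11.45 and 10.97 in T1, and fell by 0.93, 0.84, 0.72 and 0.74 (SE 0.11). Akap3, known as a sperm tail protein, fell by 0.58 to 0.68, and Akap7, a small membrane-bound AKAP, fell by 0.42, 0.62 and 0.51 at 2, 4 and 8 weeks. Akap3 and Akap7 also differed by -0.54 and -0.41 between the scanning sessions of the time course at equal groups (second minus first).

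Akap13, a large anchoring protein found in heart muscle among other tissues, read 8.33, 8.39, 7.98 and 8.25 in T0 and 9.56, 9.69, 9.41 and 9.89 in T1. Every injured array of the time course was above T0. It rose by 1.40, 1.18, 1.21 and 1.31 (SE 0.14). Akap10, which binds both types of PKA regulatory subunit, rose by 0.79 at 1 week and by 0.43 at 8 weeks. Akap14, an AKAP of cilia, was the AKAP with a passing dip: it fell by 0.62 at 1 week, was within 0.30 of T0 afterwards, and rose by 0.92 ± 0.23 from 1 to 8 weeks (adjusted p = 0.00858). Of 4 markers of the ependyma, whose cells carry cilia, 2 fell at 1 week (Tekt1 and Spag6) and 2 rose from 1 to 8 weeks (Foxj1 and Tekt1). Their mean levels were 7.97 to 8.03 in T0, 7.20 to 7.53 in T1 and 7.95 to 8.48 in T8, and their part in the course of Akap14 was not tested.

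Akap12, gravin, a scaffold for PKA and protein kinase C, read 9.44, 9.20, 8.90 and 9.43 in T0, 9.29, 9.65, 9.28 and 9.15 in T1 and 8.82, 8.66, 8.74 and 8.72 in T2. T1 overlapped T0, and T2 was wholly below both. Akap12 was at 0.10 at 1 week, fell by 0.50 and 0.61 at 2 and 4 weeks, and was at -0.28 at 8 weeks (adjusted p = 0.155). It was the only member to fall from 1 to 2 weeks (-0.60 ± 0.15, adjusted p = 0.0439), in a call kept in 13 of 28 fits that left out 1 array.

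**Figure D3:**
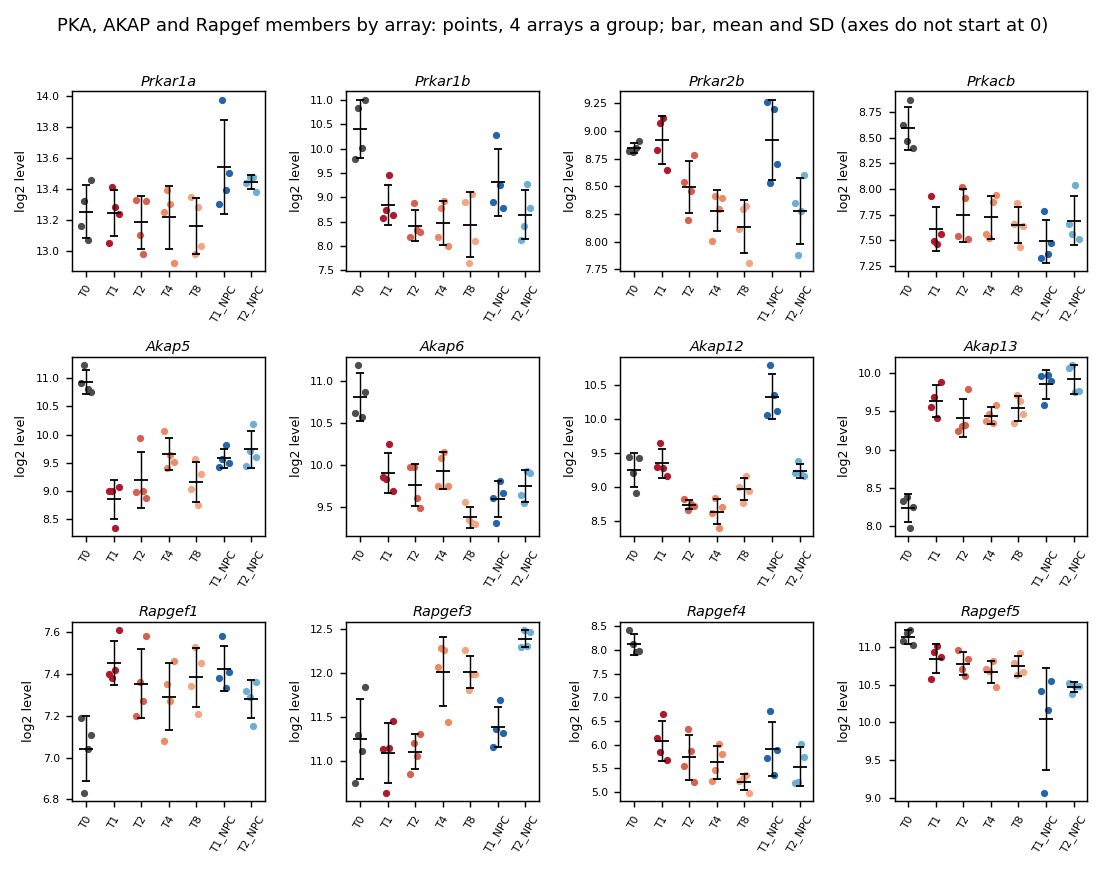
Log2 level of selected PKA subunit, AKAP and Rapgef genes on each array (vertical axes) in the 7 groups, with a bar for each group mean and SD (n = 4). Akap5 and Rapgef4 fall far below T0 after injury, Akap13 rises, Akap12 is highest in T1_NPC, and Rapgef3 is highest in T2_NPC.

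The EPAC genes moved in opposite directions at 4 and 8 weeks. Rapgef4 encodes EPAC2, the form known from neurons and endocrine cells, and Rapgef3 encodes EPAC1, the more widely expressed form. Rapgef4 read 8.42, 8.12, 7.95 and 7.97 in T0, 6.15, 5.84, 6.64 and 5.68 in T1 and 5.23, 5.29, 5.37 and 4.98 in T8. The T8 arrays were below every T1 array, and both groups were far below T0. Rapgef4 fell by 2.04, 2.38, 2.49 and 2.90 at 1, 2, 4 and 8 weeks (SE 0.27), which at 8 weeks was 7.45-fold (adjusted p = 1.15e-08), and by 0.86 from 1 to 8 weeks (adjusted p = 0.0452, kept in 13 of 28 fits that left out 1 array). Rapgef3 read 10.75, 11.30, 11.12 and 11.84 in T0, 10.86, 11.21, 11.06 and 11.31 in T2 and 12.26, 11.81, 11.99 and 11.99 in T8. T2 lay inside the range of T0, and the T8 arrays lay above T2 but overlapped T0. Rapgef3 was at -0.16 and -0.14 at 1 and 2 weeks, and rose by 0.76 ± 0.21 and 0.76 ± 0.21 at 4 and 8 weeks (adjusted p = 0.00465 and 0.00453), and by 0.91 from 1 to 8 weeks (adjusted p = 0.00435).

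Since these paralogs moved apart, the last 30 bases of the best ungapped alignment of their probes are shown, with shared bases in capitals.
Rapgef4 probe A_44_P445318: GAcAAtCTagTaAACTTTGAaAAaATGCGc
Rapgef3 probe A_43_P15424: GAaAAcCTcaTcAACTTTGAgAAgATGCGa
The stretches shared 22 of 30 bases, and the aligned probes 35 of 50 (70.0%). The array annotation (rn4) places the Rapgef4 probe at chr3:54701159-54712353 on the plus strand and the Rapgef3 probe at chr7:136455150-136455922 on the minus strand, each over a span longer than the probe.

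Of the other Rapgefs, Rapgef1 rose slightly at 1, 2 and 8 weeks (0.41, 0.31 and 0.34), and Rapgef2, Rapgef5 and Rapgef6 did not pass the test against T0. Rapgef5 was wholly below T0 in every injured group of the time course, with differences of -0.46 to -0.29.

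Once injured, the cord changed little in these genes from one stage to the next. From 1 to 2 weeks 1 member rose and 1 fell (1.48% of all features changed, 0.815% upwards and 0.665% downwards). From 2 to 4 weeks and from 4 to 8 weeks no member passed the limma test (0.0761% and 0.0902% of all features did), with 6 members at an unadjusted p under 0.05 in each. Between 1 and 8 weeks 4 members rose (Pde1a, Pde9a, Akap14 and Rapgef3) and 5 fell (Pde7a, Pde3b, Prkar2b, Akap6 and Rapgef4), where 9.87% of all features changed (5.45% rose and 4.42% fell). Over the same weeks all 3 Schwann cell markers rose further (mean level 9.97 to 11.85 in T1 and 13.38 to 13.92 in T8), and their part was not tested. Of these calls, Pde1a was lost without T1 replicate 3 or 4 or T8 replicate 2 or 4 (0.87 to 0.92), Pde3b without T8 replicate 3 or 4 (-0.79 to -0.76) and Akap6 without T1 replicate 1, 2 or 3 or T8 replicate 2, 3 or 4 (-0.56 to -0.42). No member passed this comparison with the 12 undisputed arrays alone, of which T1 has 1.

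The genes around the members moved too. Of 60 listed upstream, downstream and neighbouring genes, 51 were on the array. Of those 51, 13, 13, 12 and 14 rose and 20, 19, 17 and 20 fell at 1, 2, 4 and 8 weeks. Among all features, 19.1%, 17.7%, 17.5% and 18.2% rose and 25.1%, 22.2%, 21.0% and 21.5% fell at these times. Among 6 G protein alpha subunits, 2 rose and 4 fell at every time. Gnai2, which inhibits the cyclases, rose by 1.10 ± 0.21 at 1 week, while Gnas, which stimulates the cyclases, fell by 0.68, 0.88, 0.84 and 0.94. Gnal, the stimulatory subunit of olfactory and striatal neurons, and the inhibitory Gnai1 fell by 1.25 and 2.04 at 1 week. Among other cAMP effectors, the cyclic nucleotide-gated pacemaker channels Hcn2 (-1.38 at 1 week), Hcn3 and Hcn4 fell at all 4 times. Pkia, an inhibitor of the PKA catalytic subunit, fell by 0.49, 0.63, 0.73 and 1.06.

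Some AKAPs carry symbols of other kinds, and 10 such genes were measured. Of these, 5 rose at each time, and 5, 4, 3 and 3 fell (all features: 17.5% to 19.1% rose and 21.0% to 25.1% fell). Rab32 (3.54 at 1 week) and Tnnt2 (2.32 at 1 week and 5.13 at 8 weeks) had the largest rises. Ezr (1.90 at 1 week) and Msn (1.58), which link actin to the membrane, also rose. Map2 (-1.35), a dendritic microtubule protein, Wasf1 (-0.82), an actin regulator, and Sphkap (-1.25) were among those that fell. Abcc4, a pump that exports cyclic nucleotides, rose by 0.96, 0.95 and 0.80 at 1, 4 and 8 weeks. Creb1, the transcription factor that PKA phosphorylates, rose by 0.58 and 0.51 at 1 and 2 weeks and was at 0.30 and 0.16 later.

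Transplantation of NPCs was followed by a small number of changes. T1_NPC against T1 gave 4 members that rose (Adcy3, Adcy7, Akap5 and Akap12) and 4 that fell (Adcy8, Adcy10, Pde3b and Rapgef5), 13.1% of the members where 11.9% of all features changed (5.45% rose and 6.46% fell). T2_NPC against T2 gave 9 that rose (Adcy6, Adcy7, Pde4a, Pde8a, Pde2a, Pde6b, Akap12, Akap13 and Rapgef3) and 1 that fell (Pde3b), 16.4% of the members where 9.47% of all features changed (4.62% rose and 4.85% fell). The arrays of the groups did not overlap for 12 members in the first comparison (8 wholly above and 4 wholly below, where 8.12% and 8.20% of all features were) and for 16 in the second (12 and 4, where 9.97% and 9.40% were). Slide and session were read from the scanner output that ranked closest to each array's column of the authors' table. On that basis each transplanted group filled a slide of its own, both in a scanning session that held no untransplanted array. Slide, session and transplantation therefore cannot be told apart. For T1_NPC this rests on the authors' table, since the outputs deposited under its labels came from the second session. With the compared groups alone in the fit, 1 member passed in the first comparison and 6 in the second. The share of all features is not given here for that fit or for the one described next. Their counts are therefore not read as a result about the members. Without T1_NPC replicate 2, the array that stood apart, 4 members passed in the first: Akap12 (0.83), Adcy7 (0.71), Pde3b (-0.90) and Rapgef5 (-0.47) kept their calls, and Adcy3 (0.50), Akap5 (0.73), Adcy8 (-0.50) and Adcy10 (-0.97) lost theirs (adjusted p from 0.0734 to 0.153).

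Akap12 rose in both comparisons. It read 9.29, 9.65, 9.28 and 9.15 in T1 and 10.05, 10.80, 10.35 and 10.12 in T1_NPC, and 8.82, 8.66, 8.74 and 8.72 in T2 and 9.20, 9.38, 9.18 and 9.16 in T2_NPC. Neither pair of groups overlapped. The differences were 0.99 ± 0.15 (adjusted p = 0.000183) and 0.49 ± 0.15 (adjusted p = 0.0411). Of 4 progenitor markers, none passed the test in T1_NPC against T1 and 1 (Sox2) rose in T2_NPC against T2. Their mean level per array was 11.48 to 11.67 in T1, 11.84 to 12.09 in T1_NPC, 11.08 to 11.32 in T2 and 11.44 to 11.65 in T2_NPC, with no overlap in either pair, and their part in the rise was not tested.

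Pde3b fell in both comparisons, opposite to its rise after injury. It read 8.95, 7.58, 8.37 and 8.68 in T1_NPC, where T1 read 9.47 to 9.64, and 8.54, 8.33, 8.44 and 8.91 in T2_NPC, where T2 read 8.70, 9.71, 9.46 and 9.36. T1_NPC was wholly below T1, its lowest array being replicate 2, and T2_NPC overlapped T2 through 1 low T2 array. The differences were -1.17 ± 0.22 (adjusted p = 0.0015) and -0.75 ± 0.22 (adjusted p = 0.0336). Of 9 microglial markers, 1 (P2ry12) fell in T1_NPC against T1 and none passed in T2_NPC against T2, with mean levels of 11.84 to 12.41 in T1 and 10.96 to 12.26 in T1_NPC, and their part was not tested.

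Rapgef3 was higher in T2_NPC than in any other array of the series: it read 12.30, 12.49, 12.31 and 12.46. The 4 values lay close together and wholly above T2, with a difference of 1.28 ± 0.21 (adjusted p = 0.000412, limma). In T1_NPC against T1 the difference was 0.29 ± 0.21 (adjusted p = 0.39). Beside it, 2 of 9 oligodendrocyte markers (Mbp and Mobp) rose in T2_NPC, with mean levels of 13.51 to 13.79 in T2 and 14.09 to 14.24 in T2_NPC. Of 2 red blood cell markers, 1 (Hbb) rose, with mean levels of 9.83 to 10.93 and 10.98 to 13.18. The part of either was not tested. Rapgef4 differed by -0.16 ± 0.27 and -0.20 ± 0.27 in the transplantation comparisons and passed neither (adjusted p = 0.756 and 0.712).

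Among the PDEs, 4 rose in T2_NPC against T2. Pde2a read 7.26, 7.46, 7.64 and 7.73 in T2_NPC, wholly above the T2 range of 6.29 to 7.02, and rose by 0.98 ± 0.27 (adjusted p = 0.0254), although Pde2a was also among the genes that differed between scanning sessions within the time course. Pde4a read 8.26, 8.45, 8.53 and 8.25 in T2_NPC against 7.74 to 8.16 in T2 and rose by 0.46 (adjusted p = 0.0478, kept in 9 of 28 fits that left out 1 array), and Pde8a rose by 0.60 (adjusted p = 0.0308). Pde6b, not well above background on any T2 array and so on 3 T2_NPC arrays, was higher in T2_NPC (adjusted p = 0.0171, limma, means 4.31 and 2.16). Its approximate bound was 1.36-fold, and the T2_NPC mean includes the array that was not well above background. In T1_NPC against T1, Pde4a, Pde8a and Pde2a were at 0.27, 0.34 and 0.46 and did not pass.

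**Figure D4:**
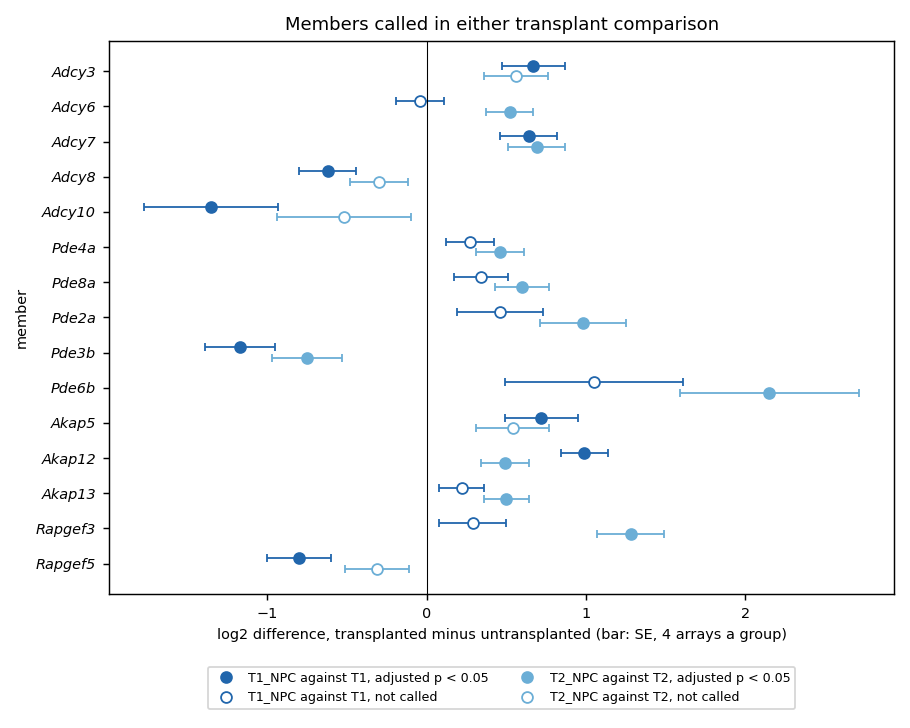
Log2 difference between transplanted and untransplanted injured cord (horizontal axis) for the 15 members that passed in either comparison, T1_NPC against T1 and T2_NPC against T2, with standard errors; filled points passed the test and open points did not. Pde3b lies to the left and Akap12 to the right of 0 in both, and Rapgef3 lies far to the right in T2_NPC against T2.

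Of the anchoring proteins, Akap5, which had fallen most after injury, read 9.42, 9.56, 9.82 and 9.50 in T1_NPC, above all T1 arrays (8.34 to 9.06) and below all T0 arrays. It rose by 0.72 ± 0.23 (adjusted p = 0.0393), and the difference in T2_NPC was 0.54 ± 0.23 (adjusted p = 0.14). None of the 10 neuronal markers passed in either comparison, and their part was not tested. Akap13 rose by 0.50 ± 0.14 in T2_NPC (adjusted p = 0.0242). Rapgef5 read 10.57, 10.94, 11.01 and 10.87 in T1 and 10.42, 9.06, 10.17 and 10.55 in T1_NPC, wholly lower with replicate 2 lowest, and fell by 0.80 (SE 0.20, adjusted p = 0.0112).

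Among the cyclases, Adcy7 rose in both comparisons, by 0.64 ± 0.18 and 0.69 ± 0.18 (adjusted p = 0.0235 and 0.0182). Here the probe A_44_P351412, which had not passed after injury, carried the rise (1.16 and 0.91), and A_44_P494183 was at 0.12 and 0.46. Adcy3 rose by 0.67 in T1_NPC and Adcy6 by 0.52 in T2_NPC. Adcy10 read 9.60, 6.72, 7.46 and 7.67 in T1_NPC against 9.40, 9.62, 8.10 and 9.74 in T1, overlapping through T1_NPC replicate 1, and fell by 1.35 (SE 0.42, adjusted p = 0.0366). Adcy8 fell by 0.62 in T1_NPC (adjusted p = 0.0278).

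The Rapgef1 probes went opposite ways after transplantation, so that the gene's average of -0.07 in T2_NPC against T2 hides them, and 30 bases of each are given.
Rapgef1 probe A_43_P15739, chr3:8674442-8674501: tgctcctgaagttcatcaagatcatgaagc
Rapgef1 probe A_44_P379699, chr3:8666692-8666751: acccctgttgagtttgtgggtgatttcagt
The first read 5.48, 6.12, 5.84 and 5.92 in T2 and 6.42, 6.39, 6.46 and 6.68 in T2_NPC, and the other 8.93, 8.60, 8.71 and 9.25 in T2 and 8.22, 8.18, 7.85 and 8.05 in T2_NPC. Neither pair of groups overlapped. The first rose by 0.65 (adjusted p = 0.00795) and the other fell by 0.79 (adjusted p = 0.00165). In T1_NPC against T1 the first was at 0.45 (adjusted p = 0.0519) and the other fell by 0.50 (adjusted p = 0.0324).

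When each of the 28 arrays was left out in turn, Akap12, Pde3b and Rapgef5 in T1_NPC and Rapgef3 in T2_NPC kept their calls every time. In T2_NPC, Akap12 lost its call without any 1 of the 8 arrays compared (0.44 to 0.52), and Pde3b without T2 replicate 2, 3 or 4 or T2_NPC replicate 1, 2 or 3 (-0.75 to -0.62). Pde2a lost its call without T2 replicate 1, 2 or 3 or T2_NPC replicate 2, 3 or 4 (0.89 to 1.00), and Pde8a without T2 replicate 2 or 3 or T2_NPC replicate 1, 3 or 4 (0.47 to 0.57). Pde6b did so without T2 replicate 2 or 3 or T2_NPC replicate 4, and Akap13 without T2 replicate 1, 2 or 3 or T2_NPC replicate 1 or 2 (0.45 to 0.48). Adcy7 lost its call in T1_NPC without T1 or T1_NPC replicate 3 (0.43 to 0.58) and in T2_NPC without T2 replicate 1 or T2_NPC replicate 2 (0.51 to 0.62), and Adcy6 without T2 replicate 1, 2 or 3 or T2_NPC replicate 1 or 2 (0.40 to 0.52). In T1_NPC, Adcy3, Adcy8, Adcy10 and Akap5 also lost their calls without 1 or more arrays of T1 or other arrays of T1_NPC (adjusted p up to 0.0888, 0.0963, 0.103 and 0.145).

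The difference between the transplantation effects was tested for every member as T2_NPC minus T2 less T1_NPC minus T1. No member passed the limma test (0.299% of all features did), and 3 had an unadjusted p under 0.05, so a member that passed in one comparison alone was not shown to differ between them. For Rapgef3 the difference of effects was 0.99 ± 0.29 (adjusted p = 0.156), for Akap12 -0.50 ± 0.21 (adjusted p = 0.375) and for Pde2a 0.51 ± 0.38 (adjusted p = 0.658).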

How the data were processed

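Levels came from the authors' value table of 28 single-colour (Cy3) Agilent rat arrays, which holds log2 values that the authors background corrected and quantile normalised. The deposited scanner outputs give the raw intensity per spot, background flags and probe names. The authors used Agilent Feature Extraction and limma, and reported no version of the former in the sources used here.

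Of 45018 spots, 1639 controls were left out. The remaining spots were averaged per probe and then per gene symbol (41012 probes, 35469 features), and probes without a symbol were kept as features. The scanner table and the value table were joined by feature number. limma 3.58.1 in R 4.3.3 fitted one mean per group over all 28 arrays, with Benjamini-Hochberg adjustment over all features at 0.05. Figures and tables were made with Python 3.11.15 and pandas 2.3.3. Tested on simulated data for T1 against T0 (35469 features, 200 changed), the fit recovered 60% of changes of 1 and 84% of changes of 2 on the log2 scale, with 6.49% false among its calls. The simulated arrays had independent normal noise without slide or session differences. Far fewer features changed there than the 44.1% called in the data, so these rates need not hold here. The number of arrays limits the precision.

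Genes named were, per class, those called in at least 2 of the 4 comparisons with T0, up to 3 with the highest and 3 with the lowest mean difference, with Rapgef3, Rapgef4, the Pde4 genes, all PKA subunits, and every member called between injured stages or after transplantation. Genes of the surrounding pathway and cell type markers came from lists by symbol. Of those values named outside this rule, Akap3, Akap7, Pde10a, Pde11a, Rapgef2 and Rapgef6 were chosen after their values were seen. The members, lists and tests were chosen with earlier results of these data known. Of 61 symbols, 60 were current in RefSeq (GRCr8), and Akap2 is now Pakap. Probe sequences and rn4 positions are those of the scanner outputs. A group not well above background gives a bound: the lowest signal above background on each of its arrays was used where it was higher than the gene's own. A signal without that flag can lie above this lowest signal, so the bound is approximate.

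Alternatives were the scanner intensities with quantile or 75th percentile scaling, normexp background correction (offset 50, on median signals, since the mean signal is held for some arrays only), scanner outputs by their deposited labels, undisputed arrays, a filter on dim probes, the brightest probe per gene, single probes, trended and robust variance, compared groups alone, time course alone, slide or scanning session as a block, within session, the replicate number as a block, outlier spots left out, a change of at least 2-fold, and leaving out each array. Replicate numbers do not pair the animals (correlations of deviations -0.339 to 0.297).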

Additional observations from a re-analysis of the deposited data

Results flagged for a closer look

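Single arrays that stood far from the other 3 of their group, by the gap to the nearest relative to the group's range, were found for 15 of 287 gene and group combinations. Chance flags about 1 in 20 groups. No explanation was weighed.

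After injury, Adcy10 was at 8.33 in T4 replicate 3 (others 9.13 to 9.17), Pde4a at 8.32 in T8 replicate 1 (others 7.82 to 7.85), Pde8b at 2.70 in T4 replicate 4 (others 4.01 to 4.08), and Pde5a at 5.93 in T8 replicate 1 (others 6.60 to 6.70). Pde6b was at 3.75 in T4 replicate 1 (others 3.12 to 3.13) and Prkar2a at 5.48 in T8 replicate 3 (others 6.05 to 6.16). Akap5 was at 8.34 in T1 replicate 3 (others 8.99 to 9.06) and at 9.93 in T2 replicate 2 (others from 8.87), and Akap13 at 9.79 in T2 replicate 4 (others 9.24 to 9.33). Rapgef1 was at 7.61 in T1 replicate 4 (others 7.38 to 7.42).

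Adcy8 was at 11.92 in T0 replicate 4, below the other arrays, which read alike. In the transplanted groups, Adcy5 was at 11.17 in T1_NPC replicate 1 (others 11.62 to 11.70), Pde7a at 9.41 and Akap10 at 11.13 in T1_NPC replicate 2 (others 9.81 to 9.89 and 11.70 to 11.81), and Pde8a at 7.27 in T2_NPC replicate 2 (others all 7.67).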

How the results depend on the processing

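Of 151 changes of named genes, all 151 kept their direction and call with scanner intensities under quantile scaling, without dim probes, without outlier spots and with a trended robust variance, 148 with 75th percentile scaling, 145 with normexp, 140 with the brightest probe and 122 with the compared groups alone, with no reversal. The 75th percentile moved the median of all features by -0.17 at 1 week, -0.10 at 4 weeks, 0.12 from 1 to 2 weeks, 0.15 from 1 to 8 weeks, 0.12 in T1_NPC against T1 and -0.14 for the difference of the transplantation effects. In every fit that left out 1 array, 113 of 151 calls were kept.

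With the scanner outputs taken by their deposited labels, which the authors' table contradicts for 16 arrays, 0 members passed in any comparison, and 13 changes reversed: at 1 week Akap14 (0.05), at 2 weeks Adcy8 (0.03), Akap6 (0.10) and Rapgef1 (-0.01), at 4 weeks Prkar2b (0.09), in T1_NPC Adcy3 (-0.45), Adcy7 (-0.41), Adcy8 (0.09), Pde3b (0.14), Akap5 (-0.49), Akap12 (-0.62) and Rapgef5 (0.17), and in T2_NPC Pde4a (-0.01). One Pde4d probe was reversed at 1 week (0.28). The 12 undisputed arrays gave 25 members in T2_NPC against T2. The share of all features in that fit is not given here, so the count is not read as a result about the members. The same holds for the counts below that stand without such a share.

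Within the first scanning session, 20 members passed at 1 week, 0 from 1 to 2 weeks, 1 from 2 to 4 weeks, 1 from 4 to 8 weeks, 0 from 1 to 8 weeks and 15 at all 4 times, and within the second, 1 from 1 to 2 weeks. The first session held 1 array each of T1 and T4, whose spread the fit takes from the remaining arrays. Of 133 changes of named genes in the time course, none lost its call with session as a block, 47 did within the first session and 26 within the second, and 36 of 143 did with the 12 undisputed arrays, with no reversal. A change of at least 2-fold left 13, 20, 12 and 17 members at 1, 2, 4 and 8 weeks, 8 at all 4 times, 0 from 1 to 2 and from 1 to 8 weeks, and 2 in each transplantation comparison. From 1 to 2 weeks, the brightest probe left 0, the compared groups alone 0 and slide as a block 1. In T1_NPC against T1, 75th percentile scaling gave 13 (where 20.9% of all features passed), the compared groups alone 1 and slide as a random block 3. In T2_NPC against T2, the compared groups alone gave 6 and slide as a random block 2. For the difference of the transplantation effects, 75th percentile scaling gave 3 (5.57% of all features passed).

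Leaving out each array in turn gave 26 to 35 members at 1 week, 32 to 37 at 2, 31 to 37 at 4 and 32 to 37 at 8 weeks, 21 to 26 at all 4 times, 0 to 2 from 1 to 2 weeks, 0 to 1 from 2 to 4 weeks, 0 from 4 to 8 weeks, 5 to 9 from 1 to 8 weeks, 4 to 8 in T1_NPC, 2 to 14 in T2_NPC and 0 for the difference of effects.

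Against T0, the calls that single arrays decided were Pde8a at 2 weeks (-0.44 without T2 replicate 3), Pde1b at 4 weeks (-0.56 without T0 replicate 4), Pde6d at 8 weeks (-0.41 without T8 replicate 4), Prkar2b at 4 weeks (-0.48 without T4 replicate 1), Rapgef1 at 8 weeks (0.27 without T0 replicate 2) and 2 weeks (0.24 without T0 replicate 2 or T2 replicate 4), Pde2a at 4 weeks (-0.68 to -0.63 without replicate 4 of T0 or T4), Prkaca at 1 week (-0.63 without T1 replicate 3 or 4) and 8 weeks (-0.66 to -0.55 without T0 replicate 1, 3 or 4 or T8 replicate 3), Pde4dip at 4 weeks (-0.53 to -0.43 without T0 replicate 2 or 4 or T4 replicate 4), Akap10 at 8 weeks (0.34 to 0.37 without T0 replicate 2 or T8 replicate 1 or 2), Adcy6 at 4 weeks (0.35 to 0.43 without T0 replicate 1 or 3 or T4 replicate 1 or 2), Akap14 at 1 week (-0.59 to -0.54 without T0 replicate 2 or 3 or T1 replicate 2 or 4) and Pde6d at 4 weeks (-0.42 to -0.30 without T0 replicate 1, 2 or 3 or T4 replicate 3 or 4). Pde4d at 1 week was lost without T0 replicate 1, 2 or 4 or T1 replicate 2, 3 or 4 (-0.38 to -0.31), Pde6b at 1 week without T0 replicate 1 or 2 or T1 replicate 1, 2 or 3, and Pde8a at 1 week in 14 of 28 fits (-0.45 to -0.35).

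With the replicate number as a block, 30, 35, 34 and 34 members passed at 1, 2, 4 and 8 weeks, 23 at all 4 times, 0 from 1 to 2 weeks, 8 from 1 to 8 weeks, 8 in each transplantation comparison and 0 for the difference of effects. The numbers do not pair the arrays, and 144 of 151 changes kept their call. The cause of none of these shifts was tested. Signal near background limits Pde8b and Pde6b, and 4 members were never above it.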

Other observations

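Among members of which little was said, Pde7b, Adcy9, Pde12, Akap1, Akap8, Akap8l, Akap9 and Akap2 passed no test against T0 at any time. Akap2 and Akap9 differed by 0.75 and 0.65 between the scanning sessions of the time course at equal groups, as did 25 of the 61 members and 38.4% of all features in at least some amount that passed the test.

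Rapgef2 read 6.26, 6.17, 9.47 and 6.45 in T4, where replicate 3 was far above the others. It was picked out after its values were seen.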
